A study of Rattus norvegicus with 10 samples.

Results

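The genes described here are those of the Wnt, growth factor and axon guidance families, the ligands, receptors, adaptors and inhibitors through which cells signal to each other. They were taken from the deposited table by gene symbol, using the family prefixes of Wnt and its co-receptors and inhibitors, FGF, BMP, GDF, TGF-β, PDGF, VEGF, IGF, the symbol Met, Eph and ephrin, semaphorin and plexin, netrin and Sprouty genes and of RTK adaptors, with Wnt7a left out, which gave 45 genes of 3334. The prefixes Fzd, Dvl, Acvr, Egf, Erbb, Flt, Kdr, Ntrk, Nrp, Robo, Slit, Gfr, Spred and Sos were also searched and gave no listed gene. The 45 genes comprised 8 genes of Wnt signalling, 6 of FGF and receptor tyrosine kinase (RTK) signalling, 3 of BMP and TGF-β signalling, 6 of the PDGF, VEGF, HGF and IGF systems, 8 of Eph and ephrin signalling, 7 semaphorins and plexins and 2 netrin system genes. Another 5 shared only the prefix or belonged to the wider LDL receptor family (Lrp1, Lrp3, Fgfr1op2, Spryd4 and Spryd7). These were kept apart in the description, but every count of signalling genes below includes them.

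RNA came from lens capsules of male Sprague-Dawley rats (strain SD in the labels) aged 6 weeks, with the epithelium attached, and each sample pooled the 2 capsules of 1 rat. In the Hypothermia Group (5 rats) the isolated lens was held at 4°C for 8 h in Hibernate-A medium before the capsule was removed. In the Normal Group (5 rats) capsules were removed directly after euthanasia, without incubation, so cold, medium and time outside the eye cannot be told apart. The labels name no genetic change in either group. Every gene in the table had been selected because it changed between the same 10 rats, so the tests below are not independent of that selection, and counts of called genes are set beside the share called among all listed genes.

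Wnt ligands bind Frizzled receptors and the co-receptors Lrp5 and Lrp6, which stabilises β-catenin and turns on target genes, among them the inhibitor Axin2. FGF acts through receptor tyrosine kinases, the adaptors Frs2 and Grb2 and the ERK kinases, and induces Sprouty proteins that restrain it. In the lens, FGF, BMP and Wnt signals guide the change of epithelial cells into fibre cells, and Eph receptors and ephrins take part in the packing of the fibres.

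Axin2 and Spry2 are pathway response genes, transcribed when the Wnt and the FGF pathway, respectively, are active, and Axin2 fell while Spry2 rose (both were lower with scaling by listed totals), so their promoter windows are shown first. The windows run from 250 bases before to 50 bases after the RefSeq gene start on GRCr8, a later build than the Rnor_6.0 of the counts. Capitals mark matches on either strand to the letters CTTTGA (TCF/LEF, the Wnt effectors), CCGGAA (ETS factors, ERK effectors) or ACGTG (the core of the hypoxia response element), and no capitals of different motifs overlapped. Spry2 has a pair of windows, one for each start.
Axin2, chr10:94398535-94398834, + strand: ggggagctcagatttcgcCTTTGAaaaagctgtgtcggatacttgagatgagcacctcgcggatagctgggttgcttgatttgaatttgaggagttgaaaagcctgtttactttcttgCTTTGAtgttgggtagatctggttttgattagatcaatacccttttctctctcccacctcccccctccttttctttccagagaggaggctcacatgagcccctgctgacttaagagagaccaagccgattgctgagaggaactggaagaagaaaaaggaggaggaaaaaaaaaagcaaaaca
Spry2, upstream start, chr15:89111877-89112176, - strand: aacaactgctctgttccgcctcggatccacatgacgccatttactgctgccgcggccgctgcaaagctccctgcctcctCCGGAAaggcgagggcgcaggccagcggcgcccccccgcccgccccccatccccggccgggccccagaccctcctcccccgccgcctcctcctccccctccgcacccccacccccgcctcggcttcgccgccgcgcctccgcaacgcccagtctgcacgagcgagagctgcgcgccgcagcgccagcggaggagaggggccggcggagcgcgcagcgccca
Spry2, downstream start, chr15:89109793-89110092, - strand: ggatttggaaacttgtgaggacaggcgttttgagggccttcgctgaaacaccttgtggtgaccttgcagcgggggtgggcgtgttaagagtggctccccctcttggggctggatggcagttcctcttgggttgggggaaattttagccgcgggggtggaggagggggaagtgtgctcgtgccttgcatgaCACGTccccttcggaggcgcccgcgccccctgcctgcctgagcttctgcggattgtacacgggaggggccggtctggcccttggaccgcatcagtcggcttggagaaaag
In the Axin2 window CTTTGA stood 232 and 132 bases before the start. The upstream Spry2 window held CCGGAA 171 bases before the start, and the downstream one held ACGTG, read as CACGT, 60 bases before it. RefSeq windows were matched by symbol for 32 of the 45 genes (33 windows). Of these, 15.2% held CTTTGA against 16.1% of all 33469 windows, 12.1% held CCGGAA against 15%, and 18.2% held ACGTG against 19.3%. The Spry1 window, matched but not shown, held none of these letters, although Spry1 changed more than Spry2. A match describes letters and not a bound site.

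Values are normalized counts, the deposited read counts divided by size factors recovered from the authors' group means, unless FPKM is named, which is scaled to gene length as well. Between rats FPKM follows nearly the same scaling as the normalized counts, so it is no separate measure of change. The Dkk3 means in the Hypothermia and Normal Groups, for example, were 38198 and 28643 normalized counts and 458 and 344 FPKM. The listed genes, a part of each library, received 9026144 to 12415121 reads per rat in the Hypothermia Group and 4792595 to 8177803 in the Normal Group. The size factors ran the other way, at 0.744 to 0.98 in the Hypothermia Group and 1.08 to 1.26 in the Normal Group. Scaling by listed totals therefore lowers the changes relative to the size factors. Changes are log2FoldChanges of the Hypothermia Group over the Normal Group from edgeR's quasi-likelihood test, and calls needed an adjusted p under 0.05 with a log2FoldChange whose size was over 0.25. Defining genes of some cell types differed between the groups as well, while most listed markers of cell types outside the lens were not called. Of 20 lens fibre markers, 19 were listed and all 19 were called higher, as were 52.3% of all listed genes, with summed FPKM of 352841 to 763003 in the Hypothermia Group and 47518 to 245054 in the Normal Group, the top Normal value being that of replicate 1. Of 10 fibroblast and mesenchyme markers, 4 were listed (Col1a1, Fbn1, Fn1 and Lox), with summed FPKM of 5.86 to 30.4 against 15.8 to 185, where Normal replicates 4 and 5 reached 174 and 185. Of 10 lens epithelium markers, 5 were listed, of which Maf, Pitx3 and Cryab were called higher, Pax6 was called lower and Gja1 was not called. Their summed FPKM was 18165 to 41358 against 5772 to 16161. This sum was not split by gene, and it includes Cryab, an α-crystallin subunit that the paper counts among the major proteins of the lens. Of the other lists, 5 of 12 pigment epithelium and ciliary markers (summed FPKM of 1.63 to 10.8 against 9.55 to 35.0), 4 of 8 pericyte and smooth muscle markers (10.2 to 14.7 against 20.0 to 31.3, a sum that includes Pdgfrb), 2 of 12 retina markers (2.58 to 4.48 against 4.19 to 5.36), 2 of 10 vascular endothelium markers (3.12 to 4.48 against 4.10 to 6.36) and 4 of 11 nerve markers (0.872 to 2.38 against 1.03 to 2.12) were listed. Outside the lens lists, edgeR called 1 fibroblast and mesenchyme, 1 pigment epithelium and ciliary and 2 pericyte and smooth muscle markers lower. It called 1 nerve marker higher and no retina or vascular endothelium marker. Of all listed genes tested, 20.5% were called lower and 52.3% higher. None of the 9 immune and 4 red blood cell markers was listed, and no listed marker was at 0 in all 10 rats. The part of these cell types in the results below was not tested, and in bulk RNA fewer cells of a type and less RNA per cell cannot be told apart.

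Of the 44 signalling genes with enough counts to be tested, 17 were called higher and 10 lower in the Hypothermia Group, and 17 were not called. The 44 include the 5 genes kept apart in the description. Of those 5, 4 were called higher, Lrp3 among them, and 0 lower. The 27 called genes made 61.4% of those tested, where 72.9% of all 3222 listed genes tested were called. Called higher were 38.6% of them against 52.3% of all listed genes, and called lower 22.7% against 20.5%. The median log2FoldChange was -0.27 over the signalling genes and 0.36 over all listed genes. A log2FoldChange above 1 together with the call was found for 5 genes, all higher (Wnt5b, Unc5a, Lrp3, Spry1 and Plxnd1), where 10.3% of listed genes were that far up and 1.89% that far down. The groups did not overlap for 18 of the 45 genes (40.0%), 14 higher and 4 lower, against 57.7% of all listed genes, 41.1% higher and 16.6% lower. Under TMM with p-values adjusted over the tested genes, 9 signalling genes were called higher and 23 lower, where 65.0% of all listed genes were called, 28.8% higher and 36.2% lower. DESeq2 with the recovered size factors called 21 higher and 19 lower, against 88.1% of listed genes (58.8% higher and 29.4% lower). Without Hypothermia replicate 3, 4 or 5 or Normal replicate 4, the genes called lower numbered 5, 6, 6 and 5.

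**Figure D1:**
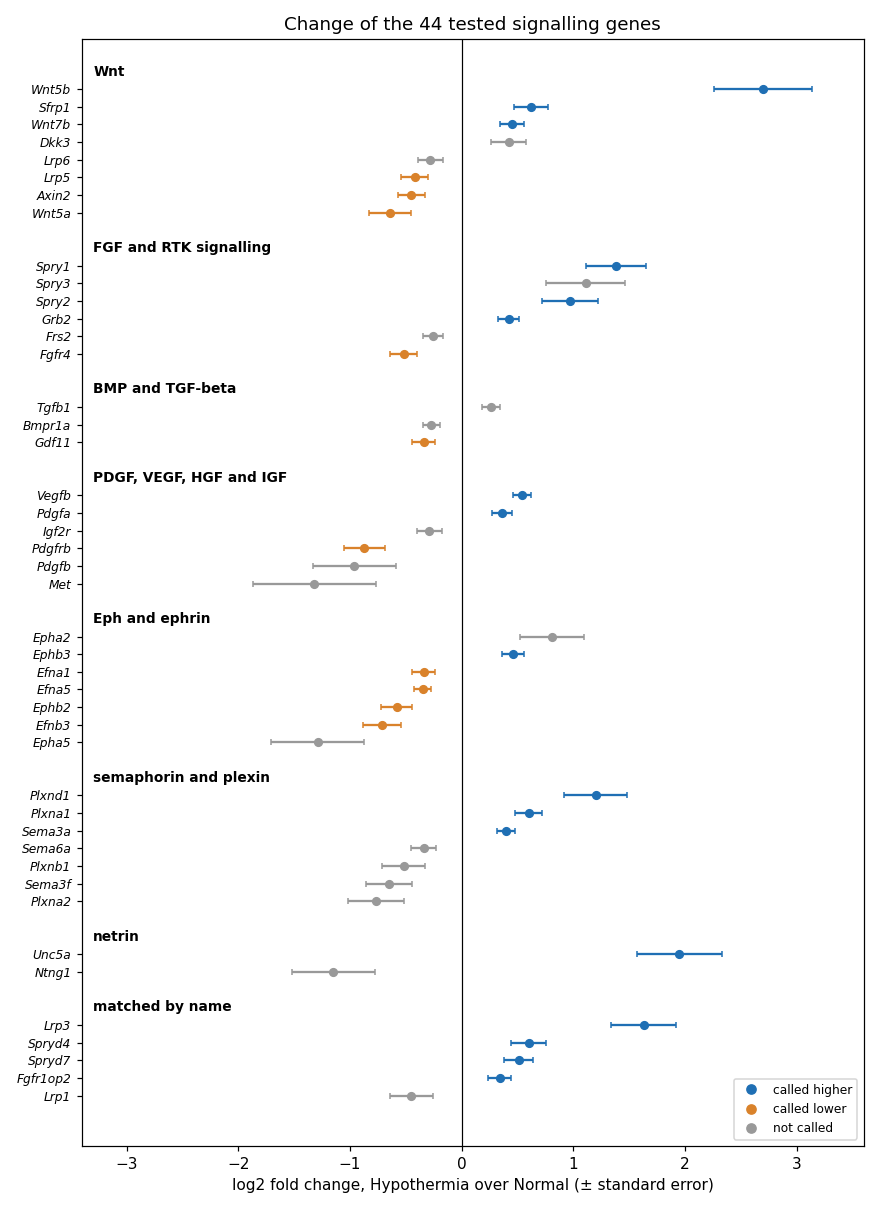
Log2FoldChange (x axis, Hypothermia over Normal) with its standard error for the 44 tested signalling genes, grouped by pathway, with blue for genes called higher, orange for genes called lower and grey for genes not called. Wnt5b lies furthest to the right at 2.70, and each pathway holds points on both sides of 0. TMM scaling moves all points by -0.29, which takes Tgfb1 to the left of 0, and scaling by listed totals moves them by -1.23, which leaves 4 to the right of 0.

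All points in the plot of log2FoldChanges shift together when the scaling changes. TMM on the listed genes lowered the median of all genes by 0.29 on the log2 scale, median-of-ratios factors by 0.31 and the totals of the listed genes by 1.23. Under TMM every signalling gene kept its direction except Tgfb1. Under the listed totals Wnt5b (1.59), Unc5a (0.66), Lrp3 (0.45) and Spry1 (0.13) stayed higher and the other 40 were lower.

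The Wnt ligands moved apart, Wnt5b and Wnt7b rising and Wnt5a falling (Wnt7b was lower with listed totals). The normalized counts of Wnt5b were 839, 417, 815, 455 and 680 in Hypothermia replicates 1 to 5 and 228, 72, 45.4, 50.4 and 102 in Normal replicates 1 to 5. Each Hypothermia rat lay above each Normal rat, and Normal replicate 1, which also had the highest fibre marker sum of its group, was the nearest. This was 6.49-fold, a log2FoldChange of 2.70 (standard error 0.44, adjusted p = 0.00575, edgeR), and without Normal replicate 1 it was 3.26. Wnt5b encodes a ligand of the non-canonical, β-catenin-independent branch and its locus on Rnor_6.0 is chromosome 4, 151500957 to 151516894. Its close relative Wnt5a (chromosome 16, 4469468 to 4489860) had 265, 270, 178, 218 and 251 in Hypothermia replicates 1 to 5 and 286, 372, 245, 501 and 443 in Normal replicates 1 to 5. The Wnt5a ranges overlapped, with Normal replicates 4 and 5 the highest, and the log2FoldChange of -0.64 (standard error 0.19, adjusted p = 0.0484, edgeR) was no longer called in 8 of 10 fits without 1 rat. Without Normal replicates 4 and 5 together it was -0.35.

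Because both ligands are read in the same library, the ratio of their FPKM values does not depend on the scaling. In the Normal Group Wnt5b was at 1.54, 0.375, 0.359, 0.195 and 0.445 times the level of Wnt5a in replicates 1 to 5. In the Hypothermia Group it was at 6.14, 3.0, 8.86, 4.04 and 5.25 times that level. The order of the pair was thus turned around in 4 Normal rats compared with the Hypothermia rats, and Normal replicate 1 had Wnt5b above Wnt5a already. Wnt7b, a lens epithelial ligand, was the most abundant of the 3 Wnt ligands, at 160 ± 18.4 (SD, n = 5) FPKM after hypothermia and 117 ± 8.54 (SD, n = 5) in normal capsules. Its normalized counts were 10810, 9592, 10680, 8787 and 11883 in the Hypothermia rats and 8222, 7183, 8077, 7048 and 7224 in the Normal rats. The groups did not overlap, and the log2FoldChange of 0.45 (standard error 0.11, adjusted p = 0.0162, edgeR) was no longer called with TMM and adjustment over the tested genes (log2FoldChange of 0.16). Wnt7a, which was left out by the rule, had normalized counts of 1091 to 3535 in the Hypothermia Group and 24.7 to 818 in the Normal Group.

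Of the Wnt co-receptors, Lrp5 fell and Lrp6 was not called. Lrp5 (chromosome 1, 218816841 to 218920094) had 1104, 1013, 1056, 839 and 1014 in the Hypothermia rats and 1151, 1261, 1136, 1471 and 1698 in the Normal rats. Every Hypothermia rat was below every Normal rat, with Normal replicates 4 and 5 again the highest, and the log2FoldChange was -0.42 (standard error 0.12, adjusted p = 0.0412, edgeR), lost in 8 of 10 fits without 1 rat. Lrp6 differed by -0.28 on the same scale (standard error 0.11, adjusted p = 0.124, edgeR).

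The secreted modulators were the most abundant signalling transcripts of all 45. Dkk3, a divergent member of the Dickkopf family, stood at 458 ± 83.6 (SD, n = 5) FPKM after hypothermia and 344 ± 38.3 (SD, n = 5) in normal capsules. Its log2FoldChange of 0.42 was not called (standard error 0.16, adjusted p = 0.13, edgeR). Sfrp1, a secreted Frizzled-like protein that binds Wnt ligands, followed at 200 ± 40.7 (SD, n = 5) and 131 ± 16.5 (SD, n = 5) FPKM. The normalized counts of Sfrp1 were 12768, 9009, 15893, 12388 and 14741 in the Hypothermia rats and 8213, 7738, 8508, 7595 and 10252 in the Normal rats. Hypothermia replicate 2 lay below Normal replicate 5, and the log2FoldChange was 0.62 (standard error 0.15, adjusted p = 0.0217, edgeR), which became -0.67 with listed totals. Its call was lost in 4 of 10 fits without 1 rat.

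Axin2, the β-catenin destruction complex scaffold whose promoter window is shown above, fell. In Hypothermia replicates 1 to 5, Axin2 had normalized counts of 299, 318, 231, 299 and 228, and in Normal replicates 1 to 5 it had 399, 420, 347, 399 and 311. The groups overlapped only through Hypothermia replicate 2 and Normal replicate 5. The log2FoldChange was -0.45 (standard error 0.12, adjusted p = 0.0301, edgeR), with no call in 5 of 10 fits without 1 rat. Of 53 other Wnt pathway genes fixed as a list, 11 were listed and tested, 4 of them called higher and 3 lower (63.6%, against 72.9% of all listed genes). Rspo1, a secreted amplifier of Wnt signals, had 1384 to 2426 against 585 to 1014 (log2FoldChange of 1.35, adjusted p = 0.00459, edgeR). Nkd2, a Dishevelled-binding inhibitor, had 153 to 497 against 26.4 to 149 (1.74, adjusted p = 0.0371, edgeR). On the lower side, the cell cycle gene Ccnd1 had 249 to 623 against 538 to 1072 (-1.03, adjusted p = 0.0289, edgeR) and the planar polarity receptor Ptk7 had 595 to 791 against 831 to 1233 (-0.46, adjusted p = 0.0321, edgeR).

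**Figure D2:**
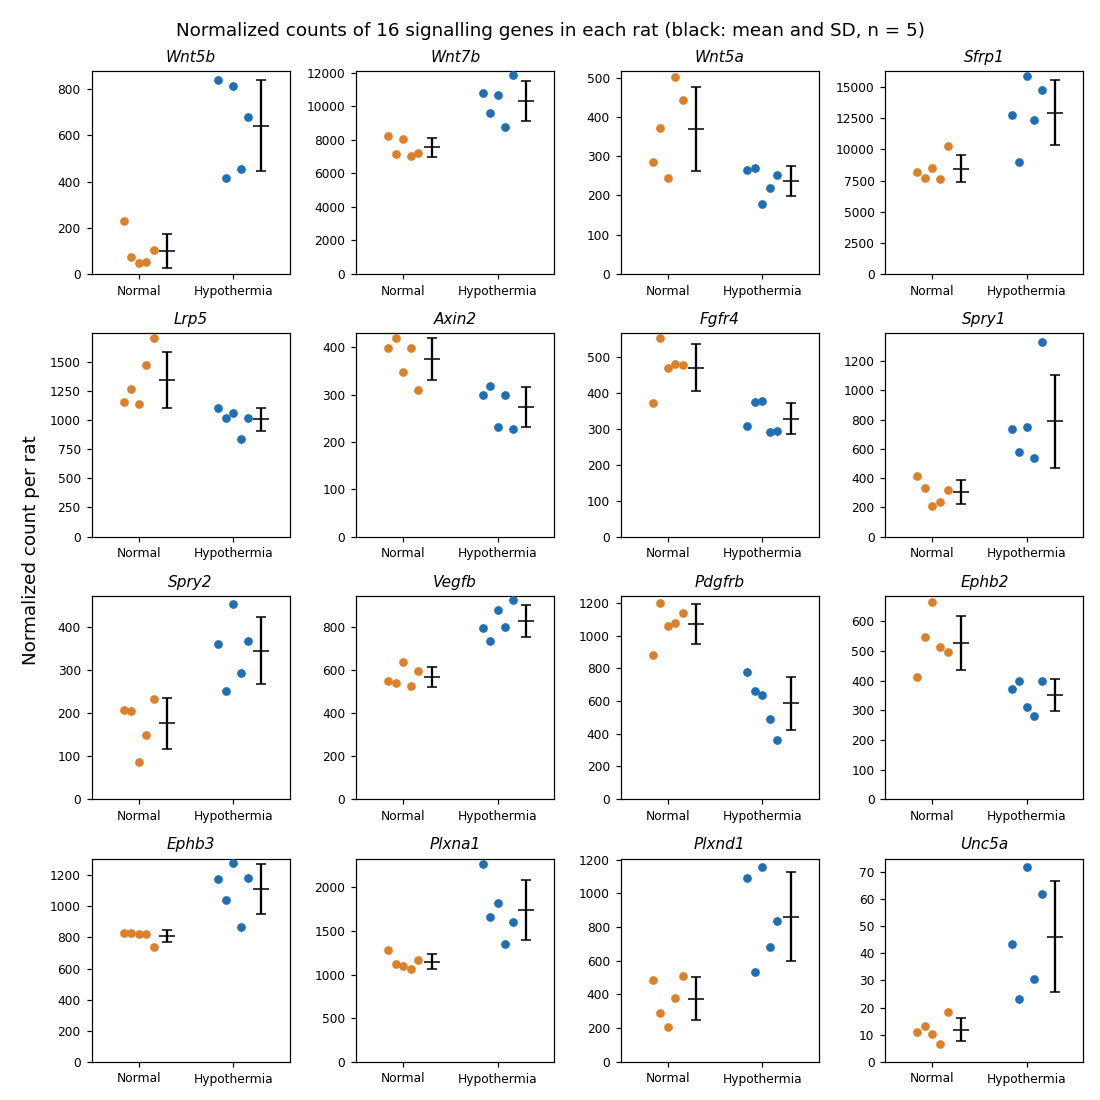
Normalized count (y axis, each panel from 0) of 16 signalling genes in each of the 5 Normal rats (orange) and 5 Hypothermia rats (blue), with the mean and SD in black. Wnt5b, Spry1, Plxnd1 and Unc5a show no overlap between the groups and the Normal rats lowest, while Lrp5, Pdgfrb and Ephb2 show the Hypothermia rats lowest.

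In FGF and RTK signalling Spry1 and Spry2 rose and the receptor Fgfr4 fell (Spry2 was lower with listed totals). Sprouty proteins are inhibitors induced by the pathway they restrain. The normalized counts of Spry1 were 738, 575, 752, 540 and 1333 in Hypothermia replicates 1 to 5 and 413, 335, 206, 238 and 321 in Normal replicates 1 to 5. Each Hypothermia value of Spry1 exceeded each Normal value, with Hypothermia replicate 5 far above the rest, and this was the rat with the highest fibre marker sum. The log2FoldChange was 1.38 (standard error 0.27, adjusted p = 0.00945, edgeR), and between 1.11 and 1.51 in the fits without 1 rat. The Spry1 locus is chromosome 2, 124400679 to 124405331. Spry2 (chromosome 15, 90172975 to 90175802) had 359, 251, 453, 293 and 367 in the Hypothermia rats and 208, 205, 85.9, 150 and 232 in the Normal rats. Its groups did not overlap either, and the log2FoldChange was 0.97 (standard error 0.25, adjusted p = 0.0259, edgeR), lost in 4 of 10 fits without 1 rat. Spry3 was rarer, with 49.0 to 114 against 17.6 to 66.6, and its log2FoldChange of 1.11 was not called (standard error 0.35, adjusted p = 0.0534, edgeR).

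Fgfr4, the FGF receptor among these genes, had 307, 374, 377, 291 and 294 in the Hypothermia rats and 371, 553, 470, 481 and 478 in the Normal rats. The groups touched at Normal replicate 1, which lay just under Hypothermia replicates 2 and 3, and the log2FoldChange was -0.52 (standard error 0.12, adjusted p = 0.0141, edgeR). The adaptors differed from each other. Grb2, which links receptors to the Ras activator Sos, had 959 to 1289 against 743 to 882 without overlap (log2FoldChange of 0.42, standard error 0.09, adjusted p = 0.0104, edgeR), was not called with TMM and adjustment over the tested genes (0.13) and was lower with listed totals (-0.81). Frs2, which docks to FGF receptors, stood at -0.26 and was not called (standard error 0.09, adjusted p = 0.0726, edgeR).

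Of 55 other genes of the RTK to ERK route, 13 were listed and 12 tested, with 6 called higher and 3 lower (75.0%, near the 72.9% of all listed genes). Ngfr, the low-affinity neurotrophin receptor, had 1155 to 2482 against 322 to 607 (log2FoldChange of 1.95, adjusted p = 0.00459, edgeR). Ret, the receptor kinase for GDNF family ligands, had 65.9 to 133 against 13.5 to 52.2 (1.61, adjusted p = 0.0156, edgeR). Dusp6, an ERK phosphatase that is also induced by ERK, went the other way from Spry1 and from Spry2 (which was lower too with listed totals), with 16.7 to 65.1 against 47.7 to 146 (-1.61, adjusted p = 0.0195, edgeR). The ubiquitin ligase gene Cblb had 448 to 499 against 506 to 672 (-0.31, adjusted p = 0.0289, edgeR).

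Of the 3 BMP and TGF-β family genes, 1 was called, and it fell (72.9% of all listed genes were called). Gdf11, a ligand of the activin branch, had 1104 ± 82.8 (SD, n = 5) in the Normal and 874 ± 118 (SD, n = 5) in the Hypothermia Group and fell by the test (log2FoldChange of -0.34, standard error 0.10, adjusted p = 0.0406, edgeR), with no call in 7 of 10 fits without 1 rat. The BMP receptor Bmpr1a (log2FoldChange of -0.27, standard error 0.08, adjusted p = 0.0555, edgeR) and the ligand Tgfb1 (log2FoldChange of 0.26, standard error 0.08, adjusted p = 0.0504, edgeR) were not called. Tgfb1 turned to -0.03 with TMM and to -0.98 with listed totals. Of 49 other genes of this pathway, 7 were listed and tested, 6 of them called lower and 0 higher (85.7%), where 72.9% of all listed genes were called and 20.5% were called lower. Over all the lists of other pathway genes together, the 16 lower calls became 2 without Normal replicate 5, 4 without Normal replicate 4, 5 without Hypothermia replicate 3 or 4 and 9 without Hypothermia replicate 5. The matrix protein gene Tgfbi had 3.06 to 19.3 against 9.82 to 48.0 (log2FoldChange of -1.88, adjusted p = 0.0459, edgeR), and the groups overlapped.

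In the PDGF and VEGF systems the ligand genes Vegfb and Pdgfa rose and the receptor gene Pdgfrb fell (Vegfb and Pdgfa were lower with listed totals). Vegfb, a ligand of the VEGF family, had 795, 735, 877, 801 and 923 in the Hypothermia rats and 549, 540, 638, 525 and 594 in the Normal rats. No overlap and a narrow spread gave the lowest adjusted p of the 44 genes, with a log2FoldChange of 0.54 (standard error 0.08, adjusted p = 0.00488, edgeR) that TMM lowered to 0.24, under the threshold for a call. Pdgfa rose from 194 ± 9.16 (SD, n = 5) to 249 ± 23.5 (SD, n = 5) without overlap (log2FoldChange of 0.36, standard error 0.09, adjusted p = 0.02, edgeR) and was not called with TMM (0.07). Pdgfrb, the PDGF-B receptor, was the furthest down of the genes called lower. It is itself 1 of the 4 listed pericyte markers, and its FPKM of 6.19 ± 1.71 (SD, n = 5) in the Hypothermia and 11.3 ± 1.28 (SD, n = 5) in the Normal Group is a large share of their sum. In Hypothermia replicates 1 to 5, Pdgfrb had normalized counts of 781, 662, 638, 489 and 364, and in Normal replicates 1 to 5 it had 879, 1201, 1058, 1076 and 1142. The highest Hypothermia rat stayed below the lowest Normal rat, and the Hypothermia rats spread more than 2-fold among themselves. The log2FoldChange was -0.87 (standard error 0.18, adjusted p = 0.00965, edgeR), and between -0.99 and -0.74 in the fits without 1 rat. The Pdgfrb locus is chromosome 18, 56364620 to 56406381.

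Another 3 genes of these systems, Met, Pdgfb and Igf2r, were not called. Met, the HGF receptor, had 26.5 to 91.4 against 98, 45, 48.5, 256 and 246 in Normal replicates 1 to 5, so that its high Normal mean came from replicates 4 and 5. Its log2FoldChange of -1.32 (standard error 0.55, adjusted p = 0.184, edgeR) became -0.20 without these rats. Pdgfb had 11.2 to 49.0 against 42.4 to 90.7 (log2FoldChange of -0.96, standard error 0.37, adjusted p = 0.132, edgeR), and Igf2r, a receptor that clears IGF2, stood at -0.29 (standard error 0.11, adjusted p = 0.0977, edgeR). Of the other genes, 3 of 16 in the PDGF and VEGF list were in the table and 2 were tested, and edgeR called neither (median log2FoldChange of -0.79). Of 24 IGF pathway genes, 4 were listed and tested, and Pik3r3 (807 to 1264 against 1342 to 1790, log2FoldChange of -0.47, adjusted p = 0.0281, edgeR) and Pik3r1 (782 to 1082 against 1267 to 1557, -0.60, adjusted p = 0.00573, edgeR), both regulatory subunits of PI3 kinase, were called lower (2 of the 4, where 20.5% of all listed genes were called lower).

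All 3 listed ephrins were called lower, as were 20.5% of all listed genes, and the Eph receptors did not share a direction. Efna5 had the highest FPKM of the 3 ephrins, at 50.6 ± 5.70 (SD, n = 5) after hypothermia and 64.6 ± 2.90 (SD, n = 5) in normal capsules. It had 534, 606, 648, 515 and 501 normalized counts in the Hypothermia rats and 712, 722, 726, 667 and 756 in the Normal rats. Its groups did not overlap (log2FoldChange of -0.35, standard error 0.08, adjusted p = 0.0166, edgeR). The FPKM of Efna5 rests on a listed length of 666 bases, and in mean normalized counts Efna1 was higher in both groups. Efna1 fell from 847 ± 120 (SD, n = 5) to 667 ± 51.9 (SD, n = 5) (log2FoldChange of -0.34, standard error 0.10, adjusted p = 0.0437, edgeR), a call lost in 8 of 10 fits without 1 rat, and Efnb3 from 160 ± 32 (SD, n = 5) to 97.6 ± 16.3 (SD, n = 5) (log2FoldChange of -0.71, standard error 0.17, adjusted p = 0.0193, edgeR).

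Ephb2 and Ephb3, receptors for ephrin-B ligands, moved in opposite directions (Ephb3 was lower too with listed totals). The normalized counts of Ephb2 were 373, 398, 310, 281 and 398 in Hypothermia replicates 1 to 5 and 412, 546, 666, 513 and 495 in Normal replicates 1 to 5. In Hypothermia replicates 1 to 5, Ephb3 had normalized counts of 1177, 1042, 1280, 866 and 1184, and in Normal replicates 1 to 5 it had 828, 831, 820, 825 and 740. Neither receptor showed any overlap between the groups. The log2FoldChange of Ephb2 was -0.58 (standard error 0.14, adjusted p = 0.0166, edgeR) and that of Ephb3 was 0.46 (standard error 0.10, adjusted p = 0.0131, edgeR), and Ephb3 lost its call with TMM and adjustment over the tested genes (0.16). Within a rat, the FPKM of Ephb3 was 1.53 to 2.50 times that of Ephb2 in the Normal Group and 3.25 to 5.13 times in the Hypothermia Group. Epha2, a receptor needed for ordered lens fibres, had 446 to 1009 against 245 to 612, and its log2FoldChange of 0.81 was not called (standard error 0.29, adjusted p = 0.103, edgeR). Epha5 was at 13.6 to 68.5 against 35.8 to 129 (log2FoldChange of -1.29, standard error 0.42, adjusted p = 0.0664, edgeR). Epha8 was at the limit of detection, with 0 to 2 reads per Hypothermia rat and 2 to 12 per Normal rat, too few for the test.

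Among the plexins, the receptors for semaphorins, Plxnd1 and Plxna1 rose (-0.01 and -0.62, respectively, with listed totals), and Plxna2 and Plxnb1 were not called. The normalized counts of Plxnd1 were 1089, 536, 1159, 684 and 836 in Hypothermia replicates 1 to 5 and 487, 290, 206, 379 and 507 in Normal replicates 1 to 5. The groups did not overlap, and the log2FoldChange was 1.20 (standard error 0.28, adjusted p = 0.0173, edgeR), between 1.05 and 1.34 in the fits without 1 rat. The Plxnd1 locus is chromosome 4, 147854309 to 147893992. Plxna1, a co-receptor of class 3 semaphorins, had 2268, 1660, 1816, 1346 and 1599 in the Hypothermia rats and 1283, 1125, 1096, 1060 and 1162 in the Normal rats. These did not overlap, and the log2FoldChange was 0.60 (standard error 0.12, adjusted p = 0.00972, edgeR). Plxnb1 had 1436, 1311, 1485, 2474 and 2432 in Normal replicates 1 to 5 and 1086 to 1494 in the Hypothermia rats. Its log2FoldChange of -0.52 (standard error 0.19, adjusted p = 0.0982, edgeR) shrank to -0.15 without Normal replicates 4 and 5. Plxna2 was scarce, at 0.221 ± 0.0426 (SD, n = 5) and 0.378 ± 0.110 (SD, n = 5) FPKM (log2FoldChange of -0.77, standard error 0.25, adjusted p = 0.0582, edgeR). Plxna1 was 52.2 to 54.7 times as high as Plxna2 in FPKM in the Hypothermia rats, a tight range, and 15 to 33.7 times as high in the Normal rats.

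The semaphorins, secreted or membrane-bound guidance cues, differed in their calls. Sema3a rose from 348 ± 29.7 (SD, n = 5) to 459 ± 36.2 (SD, n = 5) without overlap (log2FoldChange of 0.40, standard error 0.08, adjusted p = 0.0103, edgeR) and was not called with TMM and adjustment over the tested genes (0.12), and was lower with listed totals (-0.81). Sema3f and Sema6a were not called, with log2FoldChanges of -0.65 (standard error 0.21, adjusted p = 0.0633, edgeR) and -0.34 (standard error 0.11, adjusted p = 0.0512, edgeR). The FPKM of Sema3a was 0.577 to 1.17 times that of Sema3f in the Normal rats and 1.3 to 2.05 times in the Hypothermia rats.

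**Figure D3:**
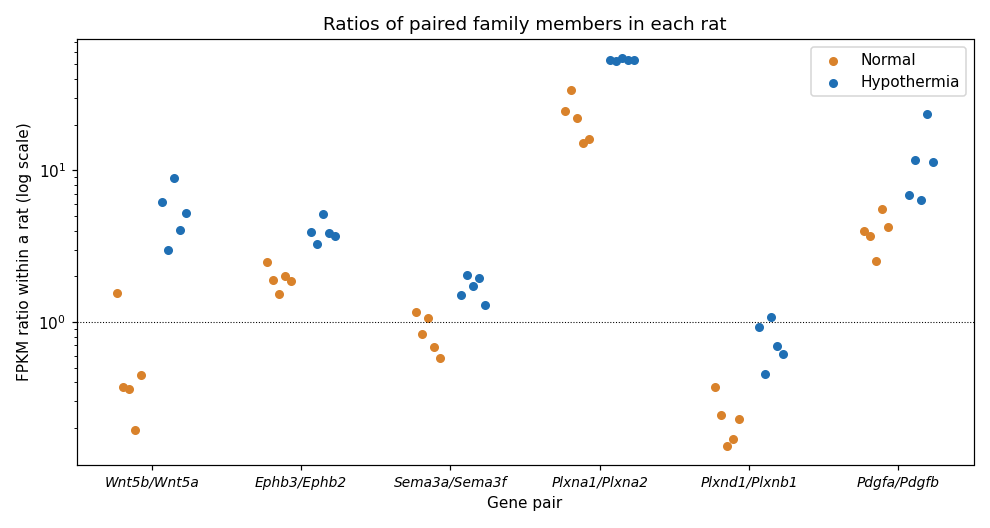
FPKM of one gene divided by that of its relative in the same rat (log axis) for 6 pairs, with 5 Normal rats in orange and 5 Hypothermia rats in blue, and a dotted line at a ratio of 1. In every pair the Hypothermia rats lie above the Normal rats, most widely for Wnt5b over Wnt5a, where the medians are 5.25 and 0.375.

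The 6 such pairs, chosen after their values were seen, are drawn in the plot of within-rat ratios, and none overlapped between the groups. The medians of Plxnd1 over Plxnb1 were 0.694 in the Hypothermia Group and 0.230 in the Normal Group, and those of Pdgfa over Pdgfb were 11.4 and 4.00. These ratios carry no test, and they are free of the scaling but not of the choice of listed genes.

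Of the netrin system, the receptor gene Unc5a (chromosome 17, 10153994 to 10208360) rose. In Hypothermia replicates 1 to 5, Unc5a had normalized counts of 43.4, 23, 71.6, 30.6 and 61.8, and in Normal replicates 1 to 5 it had 11.1, 13.1, 10.3, 6.40 and 18.3. These values rest on 8 to 57 reads per rat. No rats overlapped, and the log2FoldChange was 1.95 (standard error 0.38, adjusted p = 0.00826, edgeR). Ntng1, a membrane-anchored netrin relative, had 6.72 to 26.4 against 24 to 47.7, a log2FoldChange of -1.15 that was not called (standard error 0.37, adjusted p = 0.0605, edgeR). From a list of 43 other guidance genes, 7 were listed and tested, 3 called higher and 2 lower (71.4%, near the 72.9% of all listed genes). Nrcam, an adhesion molecule of axons, had 3723 to 8502 against 855 to 2431 (log2FoldChange of 1.86, adjusted p = 0.0073, edgeR). Farp2, Farp1 and the plexin-linked oxidase gene Mical3 changed less on the log2 scale, Farp2 by 0.30 (adjusted p = 0.0308, edgeR), Mical3 by -0.35 (adjusted p = 0.0363, edgeR) and Farp1 by -0.33 (adjusted p = 0.022, edgeR), and Farp2 turned to -0.01 with median-of-ratios factors and to -0.95 with listed totals.

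Among the 5 genes kept apart, Lrp3, an LDL receptor family member, rose most. The normalized counts of Lrp3 were 931, 626, 896, 564 and 1044 in Hypothermia replicates 1 to 5 and 367, 353, 118, 213 and 262 in Normal replicates 1 to 5. The groups did not overlap, and the log2FoldChange was 1.63 (standard error 0.29, adjusted p = 0.00718, edgeR). The Lrp3 gene overlaps Slc7a10 on the opposite strand, and reads of the shared stretch could not be told apart without strand. Slc7a10 had at most 24 reads in any rat, and the part of the shared stretch in the Lrp3 counts was not tested. Lrp1, an endocytic receptor, was among the most abundant genes, with 6625 to 8573 in the Hypothermia rats and 7790, 8243, 8842, 13994 and 14343 in the Normal rats. Normal replicates 4 and 5 were again high, and the log2FoldChange of -0.45 (standard error 0.19, adjusted p = 0.177, edgeR) was -0.09 without them. Spryd4 (log2FoldChange of 0.60, standard error 0.16, adjusted p = 0.0286, edgeR), Spryd7 (log2FoldChange of 0.51, standard error 0.13, adjusted p = 0.025, edgeR) and Fgfr1op2 (log2FoldChange of 0.34, standard error 0.10, adjusted p = 0.046, edgeR) were called higher, and all 3 were lower with listed totals and not called with TMM and adjustment over the tested genes.

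**Figure D4:**
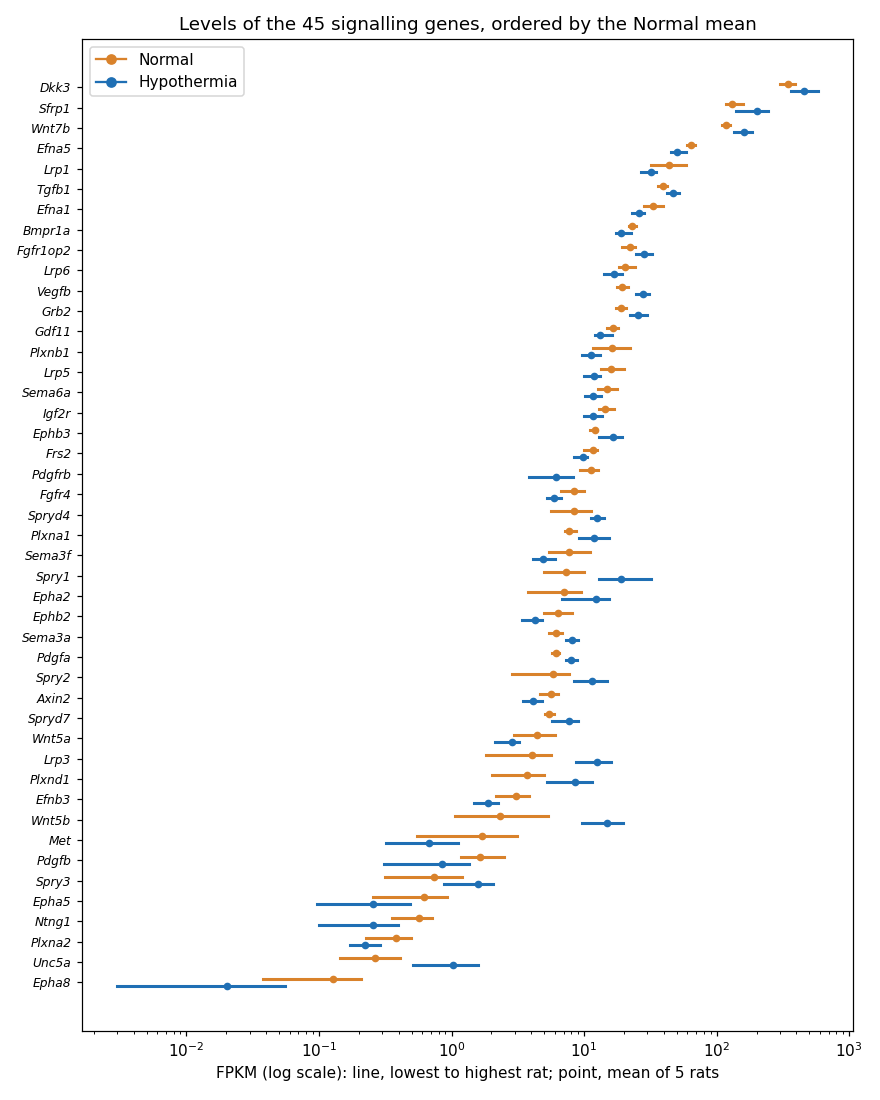
FPKM (x axis, log scale) of the 45 signalling genes, ordered by their Normal mean, with lines from the lowest to the highest of 5 rats and points at the mean, orange for Normal and blue for Hypothermia. Dkk3, Sfrp1 and Wnt7b stand at the top, Epha8 at the bottom, where rats listed at 0 are drawn at the left end of the line.

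The order of levels is shown in the plot of FPKM. Dkk3, Sfrp1 and Wnt7b led in both groups, and the Normal ranges of Sfrp1 and Wnt7b overlapped. Normal capsules held Wnt5b at 2.32 ± 1.75 (SD, n = 5) FPKM, below Wnt5a at 4.45 ± 1.28 (SD, n = 5), and capsules after hypothermia held 15 ± 4.60 (SD, n = 5) and 2.85 ± 0.461 (SD, n = 5). Mean Spry1 was 7.30 ± 1.98 (SD, n = 5) and then 19 ± 7.70 (SD, n = 5), while Unc5a remained near the bottom of the order with 0.143 to 0.408 FPKM in Normal and 0.512 to 1.59 in Hypothermia rats.

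For the 17 genes called higher, Normal replicates 1 to 5 had the highest Normal value in 9, 1, 1, 1 and 5 genes and the lowest in 0, 2, 5, 8 and 2. For the 10 genes called lower they had the highest in 0, 4, 2, 2 and 2 and the lowest in 4, 0, 2, 1 and 3. The fibre marker sums of the same rats were 245054, 144155, 47518, 84352 and 125477, so the rat with the highest sum was the one most often highest among the genes called higher, while the rat most often lowest was not the one with the lowest sum. Of the 27 called genes, 15 kept their call in each of the 10 fits that left out 1 rat (Wnt5b, Wnt7b, Fgfr4, Grb2, Spry1, Vegfb, Pdgfrb, Efna5, Ephb2, Ephb3, Sema3a, Plxna1, Plxnd1, Unc5a and Lrp3). Without Normal replicates 4 and 5 together (an alternative chosen after seeing the data), the rats with the highest mesenchyme marker sums, edgeR called none of the 44 genes nor any of the 3254 listed genes tested, although 32 of the 44 had an unadjusted p under 0.05. DESeq2 called 14 higher and 6 lower in the same 8 rats. In that edgeR fit the 27 genes kept their direction. The log2FoldChanges of Wnt5b (2.49), Spry1 (1.31), Vegfb (0.52) and Pdgfrb (-0.83) stayed near those from all rats. In proportion to the change from all rats, those of Wnt5a (-0.35) and Lrp5 (-0.23) shrank most.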

How the data were processed

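RNA-seq was performed on lens capsules of 5 rats per group. HISAT2 2.0.5 was used by the authors to place read pairs on Rnor_6.0, and they deposited whole read counts per gene from featureCounts 1.5.0-p3; the annotation release is not given in the sources used here. The deposited FPKM values scale these counts to gene length, and between rats they follow nearly the same scaling as the normalized counts. The group means deposited by the authors are a signal on the scale of normalized counts from DESeq2 1.16.1, and the deposited columns of log2 fold change and p-value (raw and adjusted) hold their own comparison and were not used.

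The table holds 3334 genes (124 unnamed) selected as changed. Size factors were recovered from the group means by least squares (largest relative error 4.9e-10). After filterByExpr, 3222 genes entered edgeR 4.0.16 (R 4.3.3), whose quasi-likelihood F test with robust dispersions (glmQLFit, glmQLFTest) had group as its only factor. P-values were adjusted by Benjamini-Hochberg as if 17000 genes had been tested, a round number near that of expressed genes. Standard errors of log2 values were obtained from each change and its F statistic. The test was also run on simulated counts in which most genes were unchanged. The listed genes were selected as changed, so that run does not bear on their calls. Alternatives were DESeq2 1.42.0, other scalings, filters and adjustments, a replicate block, and each rat left out. Without counts of all genes the full depth of each library is unknown. P-values set the difference between the groups against the spread between these rats, for genes already selected as changed.

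Members, pathway lists and tests were chosen with earlier results of these data known. Values in each rat are given for called genes with a log2 fold change above 1, called receptors and feedback inhibitors and the leading non-overlapping gene of a pathway, and for Wnt5a, Wnt7b, Efna5, Met, Plxnb1 and Lrp1, added after their values were seen; of the other pathway genes, at most 3 called per list and direction are named, those of largest change. One such gene is not reported here. Promoters are from RefSeq (GRCr8). Figures were drawn with matplotlib 3.10.9.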

Additional observations from a re-analysis of the deposited data

Results flagged for a closer look

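In 90 groups of 5 rats (45 genes in 2 groups), 3 rats lay apart from the other 4 of their group by Dixon's criterion, where chance marks about 1 group in 20. Spry1 had a normalized count of 1333 in Hypothermia replicate 5, against 540 to 752 in the other Hypothermia rats. Gdf11 had 1082 in Hypothermia replicate 2, against 798 to 857. Ephb3 had 740 in Normal replicate 5, against 820 to 831.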

How the results depend on the processing

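The scaling decides the balance of calls. The signalling genes called higher (17) and lower (10) became 5 and 22 with TMM, 5 and 22 with median-of-ratios factors, 1 and 34 with listed totals, 6 and 24 with DESeq2's own size factors, and 9 and 23 with TMM and adjustment over the tested genes. The other pathway genes (13 and 16) became 6 and 26, 6 and 26, 2 and 35, 7 and 28, and 8 and 26 in that order. Lower calls numbered 19 and 26 with DESeq2 and the recovered size factors and 23 and 26 with adjustment over the tested genes, which calls 3221 of the 3222 listed genes tested. At an adjusted p under 0.01, 6 and 1 signalling and 7 and 1 other genes were called. Same-numbered rats are different animals, and their deviations correlated between -0.17 and 0.23; with the replicate number as a block, 10 and 3 signalling genes and 3 other genes lower were called, the cause was not tested, and no sample correlated best with its own number. Leaving out each rat gave 12 to 18 and 5 to 12 signalling genes and 9 to 15 and 2 to 16 other genes, the lowest of the latter without Normal replicate 5. Without Normal replicates 4 and 5 together, an alternative chosen after seeing the data, the 4 counts were 0 with edgeR, with 32 and 33 genes at an unadjusted p under 0.05, and DESeq2 called 14 and 6, and 11 and 2.

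By construction of the shift, listed totals turned Wnt7b (-0.80), Sfrp1 (-0.67), Dkk3 (-0.85), Grb2 (-0.81), Spry2 (-0.23), Spry3 (-0.04), Tgfb1 (-0.98), Pdgfa (-0.88), Vegfb (-0.73), Epha2 (-0.38), Ephb3 (-0.80), Sema3a (-0.81), Plxna1 (-0.62), Plxnd1 (-0.01), Fgfr1op2 (-0.91), Spryd4 (-0.59), Spryd7 (-0.71) and Farp2 (-0.95) negative. The Tgfb1 log2 fold change was also negative with TMM (-0.03, under both adjustments), median-of-ratios factors (-0.05) and DESeq2's own factors (-0.05), and the Farp2 log2 fold change with the last 2 (-0.01 each). The other filters and robust = FALSE kept all counts within 1.5 times.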
